A study of Mus musculus with 6 samples.

Results

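Vwa2 and 5 genes of the Fraser complex and its partners were followed in keratinocytes of mouse tail skin: Vwa2, Fras1, Frem1, Frem2, Grip1 and Npnt. The members were taken by gene symbol, and all 6 were found among the 19618 genes of the deposited table. The set was chosen by the measured knockout to control difference of Vwa2, with the other genes joined to it by their known roles. The differences of the members between these groups are therefore descriptions and carry no test.

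Keratinocytes, the main cells of the epidermis, were isolated from the tails of mice aged 4 months, and their polyadenylated RNA was sequenced in 3 knockout and 3 control libraries. The knockout mice carried K14cre, a Cre recombinase driven by the keratin 14 promoter and so active in basal epidermal cells and in follicle epithelium, and were Gpr161Flox-Homozygous. Control mice carried the floxed allele without K14cre: 1 was labelled Gpr161Flox-Homozygous and the other two Gpr161Flox-Heterozygous, and the labels give no sex. Gpr161, an orphan receptor of primary cilia, is known to restrain Hedgehog signalling. Cells of other types in the suspension, which do not use the keratin 14 promoter, would keep an intact Gpr161.

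The Fraser complex is a set of very large matrix proteins on the dermal side of the epidermal basement membrane, the sheet that holds the epidermis to the dermis. Fras1 and Frem2 are made as membrane proteins of the epithelial cell and are released into the matrix, Frem1 is secreted, and these proteins are known to depend on one another for their deposition. Mutations in their genes cause Fraser syndrome and related conditions, in which the skin of the fetus blisters and the eyelids and digits may stay fused. Grip1 is a cytoplasmic adaptor with PDZ domains that brings Fras1 to the basal side of the cell. Vwa2, also called AMACO, is a secreted protein with von Willebrand factor A domains that binds Fras1. Npnt encodes nephronectin, a basement membrane ligand of the integrin formed by Itga8 and Itgb1, known in skin for anchoring the arrector pili muscle at the hair follicle bulge.

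Libraries held 17157864 to 25344399 estimated counts, and levels are given as CPM, which are counts scaled to a common library size with TMM factors. Because the columns name a group but no sample, a library is called by its tag. The knockout tags are DE679, DE685 and DE688, and the control tags are DE680, DE684 and DE689. Nothing in the labels says that the mice of a group came from separate litters, so the spread between libraries is that between these samples. Gpr161 itself had 26.8, 33.6 and 25.9 CPM in the knockout and 30.2, 32.2 and 31.9 CPM in the control, a log2 fold change of −0.13 (SE 0.11, edgeR quasi-likelihood adjusted p 0.553), so counts over the whole gene do not check the labels. The Hedgehog targets Gli1 and Ptch1 were higher in the libraries labelled knockout, by 2.93 (SE 0.10, edgeR adjusted p 1.77e-05) and 1.58 (SE 0.13, edgeR adjusted p 0.00228) on the log2 scale. Of 8 Hedgehog readout genes 5 passed and were higher, with Gli2 and Smo among them. Krt14 at 8847 to 11470 CPM and Krt5 at 11196 to 15700 CPM, the keratins of basal keratinocytes, were abundant in every library. Y-linked transcripts were counted in 1 library of each group, DE684 with 5291 counts and DE685 with 3311, against 0 to 3 in the other libraries.

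The start regions of Vwa2 and Frem2 are shown because these were the members whose levels were above every control library in every knockout library. The sequences are from RefSeq on GRCm38.p6, read 5′ to 3′ on the strand of the gene, and end at the base before the first annotated exon. The capitals mark the GC box, GGGCGG on either strand.
Vwa2, chr19:56874166-56874248, plus strand: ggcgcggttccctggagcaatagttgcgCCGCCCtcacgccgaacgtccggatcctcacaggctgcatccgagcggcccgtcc
Frem2, chr3:53657356-53657605, minus strand: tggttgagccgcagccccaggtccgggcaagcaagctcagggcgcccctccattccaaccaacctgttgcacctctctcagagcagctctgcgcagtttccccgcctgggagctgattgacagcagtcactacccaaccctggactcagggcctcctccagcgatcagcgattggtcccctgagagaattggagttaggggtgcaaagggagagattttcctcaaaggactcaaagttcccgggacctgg

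The Vwa2 stretch of 83 bases held 1 GC box and 11 CpG dinucleotides with a GC content of 69.9%, and the Frem2 stretch of 250 bases held 0 GC boxes and 8 CpG dinucleotides with a GC content of 59.6%. The Vwa2 stretch is short because the GENCODE M21 start lies 167 bases upstream of the RefSeq start. In the full RefSeq windows, 250 bases before to 50 after a start, Vwa2 held 4 GC boxes, of which 3 overlapped by a base each, and Frem2 held 0. Among all 32851 such windows 35.7% held one. Gli factors, the transcription factors of the Hedgehog pathway, recognise GACCACCCA. These letters, on either strand, were in 0 of the 9 windows of the 5 members with an entry (Vwa2, Frem1, Frem2, Grip1 and Npnt), and in 0.253% of all windows. The shorter core CCACCCA was also in 0 of the 9 and in 9.3% of all windows. A missing match says only that these letters are not in these windows.

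Vwa2 (ENSMUSG00000025082.8, GRCm38 chromosome 19, 56874249 to 56912078, plus strand, 14 exons) was the member with the largest difference and the smallest spread. Its control levels were 81.3 CPM (DE680), 73.4 CPM (DE684) and 72.6 CPM (DE689). Its knockout levels were 171 CPM (DE679), 187 CPM (DE685) and 187 CPM (DE688). Every knockout library lay far above every control, and each group was tight. The means were 182 ± 9.36 CPM (knockout) and 75.8 ± 4.79 CPM (control; SD, n = 3 each), a 2.40-fold difference, or 1.26 on the log2 scale (SE 0.07). In either direction 253 of the 15422 genes tested, 1.64%, differed by as much as Vwa2. The set was chosen by this difference, so its size, its place among the members and this share are descriptions only.

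Frem2 (ENSMUSG00000037016.11, chromosome 3, 53513938 to 53657355, minus strand, 24 exons), the membrane partner of Fras1, was the other member with separate groups. Control libraries held 46.1 CPM (DE680), 65.7 CPM (DE684) and 45.6 CPM (DE689), and knockout libraries 81.9 CPM (DE679), 101 CPM (DE685) and 87.1 CPM (DE688). All 3 knockout libraries were above all 3 controls, although DE684 stood apart from the other controls. The means were 90.0 ± 9.96 CPM and 52.4 ± 11.5 CPM (SD, n = 3 each), a 1.72-fold difference or 0.78 on the log2 scale (SE 0.15).

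Fras1 (ENSMUSG00000034687.8, chromosome 5, 96373955 to 96784728, plus strand, 74 exons), the namesake of the complex, varied within both groups and showed no direction. It had 57.5, 99.5 and 61.8 CPM in DE680, DE684 and DE689, and 63.6, 91.9 and 42.9 CPM in DE679, DE685 and DE688. The ranges of the groups overlapped widely. The means were 66.1 ± 24.6 CPM (knockout) and 72.9 ± 23.1 CPM (control; SD, n = 3 each), a log2 difference of −0.14 (SE 0.29). Exons of Gm42604, an antisense gene that the table does not list, overlap those of Fras1, and counting by strand is not stated.

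Frem1 (ENSMUSG00000059049.14, chromosome 4, 82897920 to 83052339, minus strand), the secreted member, was near the detection limit. It had 8, 20 and 21 counts in DE680, DE684 and DE689 and 11, 17 and 28 counts in DE679, DE685 and DE688. These are 0.688 ± 0.290 CPM (control) and 0.846 ± 0.333 CPM (knockout; SD, n = 3 each), with overlapping groups and a log2 difference of 0.29 (SE 0.47). A difference in Frem1 could not be told from its spread. Frem3, a further gene of the family, is not among the genes listed.

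Grip1 (ENSMUSG00000034813.17, chromosome 10, 119453830 to 120087261, plus strand), the adaptor that carries Fras1, leaned the other way from Vwa2 and Frem2. It had 16.6, 24.7 and 20.5 CPM in DE680, DE684 and DE689 against 14.2, 17.2 and 14.5 CPM in DE679, DE685 and DE688. The groups overlapped by 1 library, since DE685 was above DE680. The means were 15.3 ± 1.61 CPM (knockout) and 20.6 ± 4.05 CPM (control; SD, n = 3 each), a log2 difference of −0.43 (SE 0.15).

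Npnt (ENSMUSG00000040998.18, chromosome 3, 132881745 to 132950291, minus strand), the integrin ligand, had nearly the same mean in both groups. Its control values were 52.8, 46.5 and 65.8 CPM in DE680, DE684 and DE689, and its knockout values 60.5, 43.7 and 62.7 CPM in DE679, DE685 and DE688. The lowest library of each group was the one with Y-linked transcripts. The means were 55.7 ± 10.4 CPM and 55.0 ± 9.87 CPM (SD, n = 3 each), a log2 difference of 0.02 (SE 0.17).

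**Figure D1:**
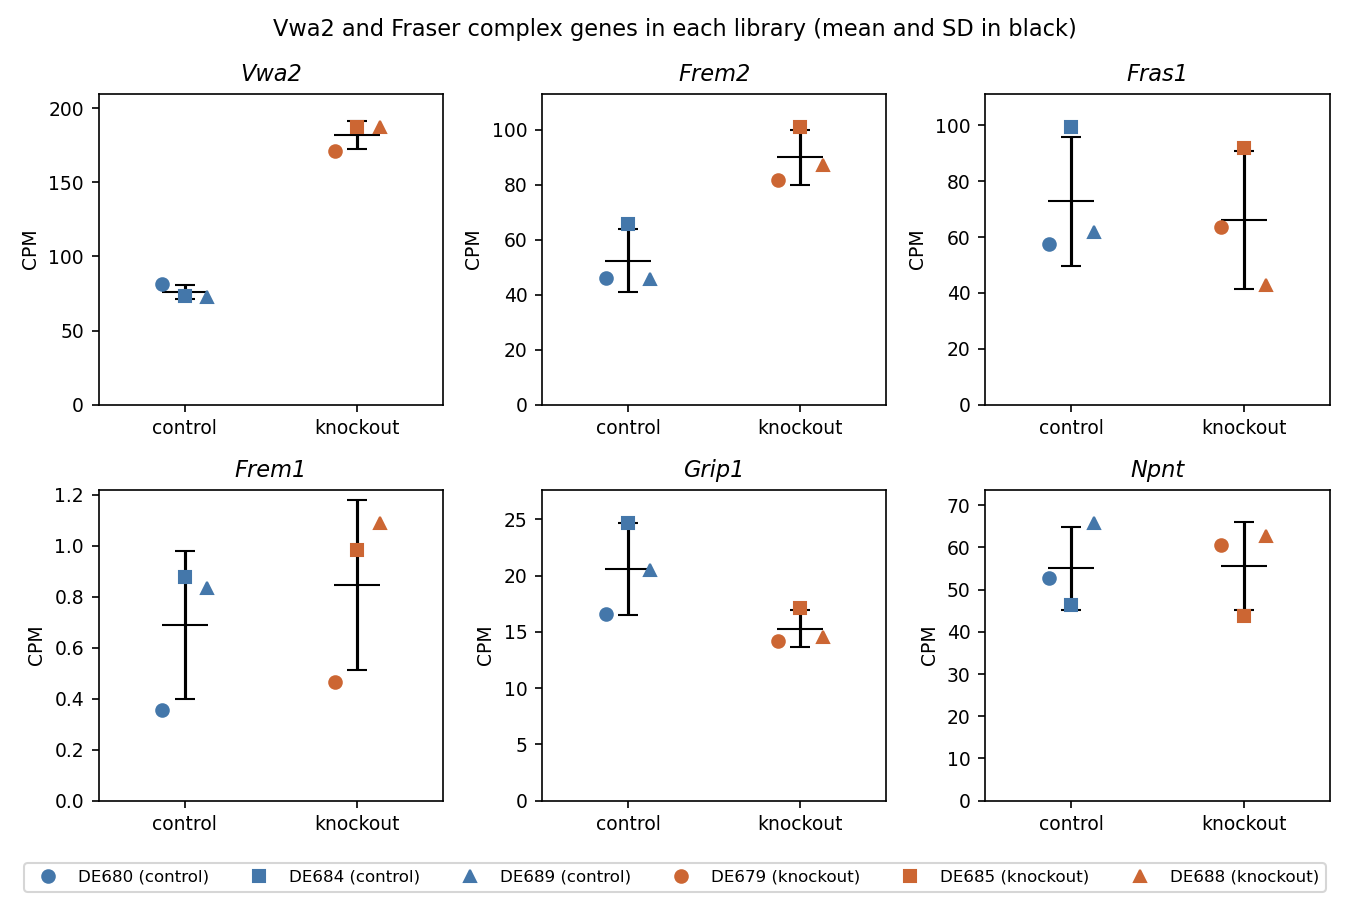
Level of each member in CPM (vertical axis, from 0, a separate scale for each gene) in the 3 control and 3 knockout libraries, with the mean and SD in black; squares are DE684 and DE685, the libraries with Y-linked transcripts. Vwa2 and Frem2 are higher in every knockout library than in every control, while the groups overlap for Fras1, Frem1, Grip1 and Npnt.

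Of the 6 members, 1 (Vwa2) passed the edgeR threshold of 0.05 on the adjusted p and was higher, and 0 passed as lower. Over all 15422 genes 1.60% passed, 1.24% as higher and 0.357% as lower. The groups did not overlap for 2 members (Vwa2 and Frem2), both with the knockout higher. Over all genes 25.6% did not overlap, 12.8% with the knockout higher. Nothing is read from these counts, since the members were chosen with this comparison known.

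The members also differed by a further axis within the groups. Fras1 was highest in the 2 libraries with Y-linked transcripts, DE684 and DE685, whatever their genotype. Between these, 1 per group and so with no replicate check, Fras1 had 0.924 times the control level in the knockout, and between the means of the other 4 libraries 0.893 times. Frem2 and Grip1 were also at the top of their groups in DE684 and DE685, and Npnt at the bottom. Krt1, a keratin of differentiating suprabasal cells, moved with Fras1, at 4303 CPM in DE684 and 4159 in DE685 against 1563 to 2777 in the other libraries. Krt10, its partner keratin, had 25272 and 17304 CPM there against 12432 to 17491. The part of sex or of the share of differentiated cells in the Fras1 values was not tested. In bulk samples, fewer cells of a type and less RNA per cell cannot be told apart.

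For Vwa2 and Frem2 the direction is the same in any split, since their groups did not overlap. Vwa2 was 2.55-fold higher in DE685 than in DE684 and 2.33-fold higher between the means of the other 4 libraries. For Frem2 these ratios were 1.54 and 1.84. Grip1 was lower in the knockout in both comparisons, at 0.695 and 0.775 times the control. With sex as a covariate, read from the Y-linked counts, the Frem2 difference was 0.80 with an SE of 0.07, less than the SE without it, and the Fras1 difference stayed at −0.15 with an SE of 0.13.

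**Figure D2:**
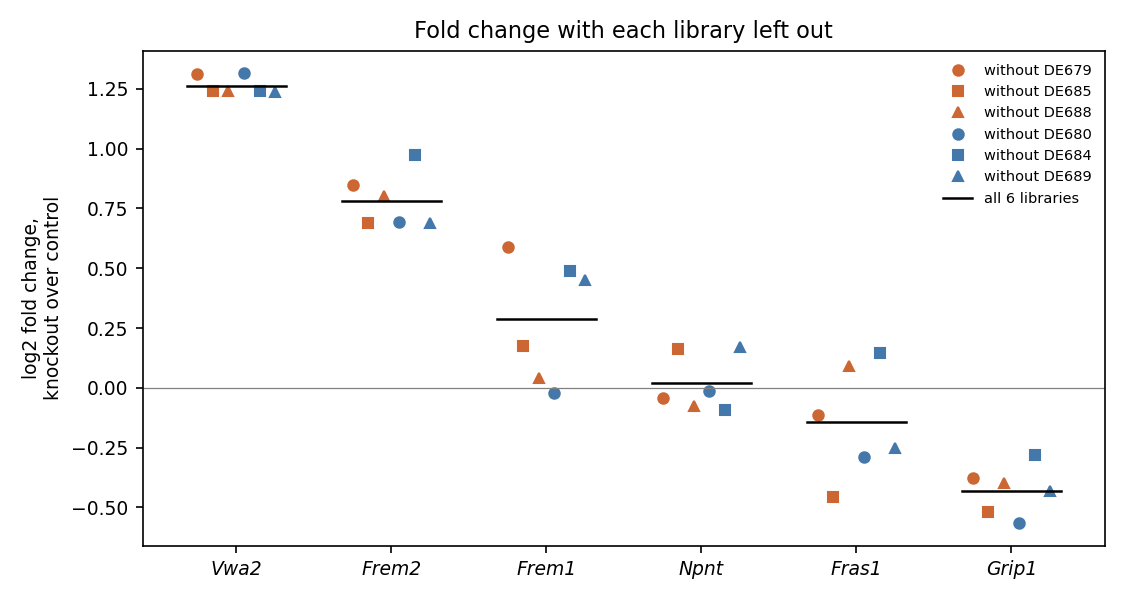
Log2 fold change of each member, knockout over control (vertical axis), in the edgeR fit with all 6 libraries (black line) and with each library left out in turn (symbols; orange for a knockout library left out, blue for a control). Vwa2 stays between 1.23 and 1.31 and Frem2 between 0.69 and 0.97, Grip1 stays below 0, and Fras1, Frem1 and Npnt fall on both sides of 0.

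Without DE684 the Fras1 difference turned to 0.14 and without DE688 to 0.09, and without DE685 it was −0.45, so Fras1 has no direction that is independent of single libraries. Npnt ranged from −0.09 without DE684 to 0.17 without DE689. Frem1 ranged from −0.02 without DE680 to 0.59 without DE679. Grip1 was −0.28 without DE684 and −0.57 without DE680.

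Levels were compared between genes as CPM per kb of the longest coding transcript in GENCODE M21. These transcripts measure 4049 bases for Vwa2, 4619 for Npnt, 5343 for Grip1, 9690 for Frem1, 12348 for Frem2 and 15848 for Fras1. In the control, Vwa2 was the most abundant member per length at 18.7 ± 1.18 CPM per kb, then Npnt at 11.9 ± 2.14 (SD, n = 3 each). This order rests on the length used: per coding length their control means were 31.9 and 30.1 CPM per kb and their libraries overlapped. Fras1 followed at 4.60 ± 1.46, Frem2 at 4.25 ± 0.931 and Grip1 at 3.86 ± 0.759 CPM per kb, and these 3 neighbours did not differ beyond their spread. Frem1 was last at 0.0710 ± 0.0299 CPM per kb, 54.3 times below Grip1.

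In the knockout, Vwa2 reached 44.9 ± 2.31 CPM per kb and Npnt stayed at 12.0 ± 2.25 (SD, n = 3 each). Frem2, at 7.29 ± 0.807 CPM per kb, was above Fras1, at 4.17 ± 1.55, in all 3 knockout libraries, and Grip1 followed at 2.86 ± 0.302. Fras1 and Grip1 overlapped. Frem1 stayed last at 0.0873 ± 0.0344 CPM per kb.

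The balance between the membrane partners can be read within each library, where scaling cancels. Per length, the ratio of Frem2 to Fras1 was 1.03 in DE680, 0.848 in DE684 and 0.947 in DE689. In the knockout it was 1.65 in DE679, 1.41 in DE685 and 2.61 in DE688. The 2 transcripts were therefore near parity in every control, and Frem2 exceeded Fras1 in every knockout library. The ratio of Vwa2 to Fras1 was 2.89 to 5.54 in the control and 7.97 to 17.1 in the knockout, and that of Vwa2 to Frem2 was 3.41 to 5.38 and 5.64 to 6.56. None of these 3 ratios overlapped between the groups, and because they are made of the same counts they add no evidence beyond the members' own differences.

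**Figure D3:**
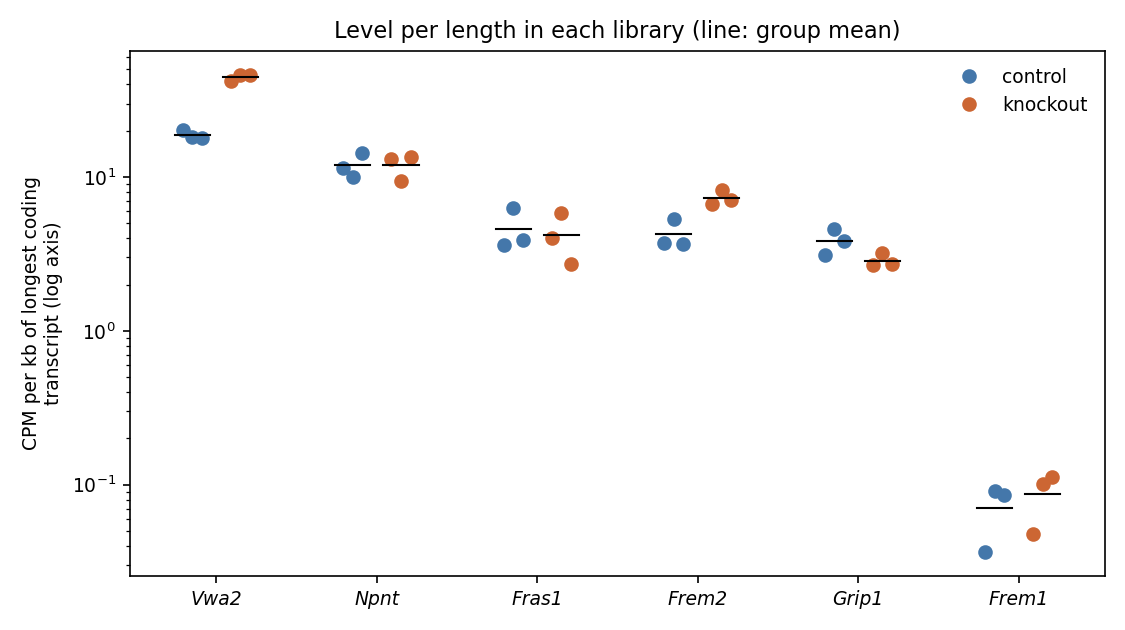
Level of each member per length (vertical axis, CPM per kb of the longest coding transcript, log axis) in each control (blue) and knockout (orange) library, with a line at the group mean. Vwa2 is highest and Frem1 lowest in both groups, and Frem2 moves from beside Fras1 in the control to above it in the knockout.

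Genes tied to the complex or to nephronectin were listed as partners. Of 8 listed, 7 were tested, and 1 passed the test and was higher, Slit3, a secreted ligand of Robo receptors. Over all genes tested 1.60% passed. Slit3 had 42.2, 52.7 and 37.7 CPM in DE679, DE685 and DE688 against 18.6, 17.5 and 16.3 CPM in DE680, DE684 and DE689. It was 2.53-fold higher, or 1.34 on the log2 scale (SE 0.13, edgeR adjusted p 0.00459), and passed without any 1 of the 6 libraries. Itga8 and Itgb1, the integrin chains that bind nephronectin, had log2 differences of −0.0015 (SE 0.24) and −0.15 (SE 0.12), with edgeR adjusted p of 0.998 and 0.529. Egfl6, a relative of nephronectin made at the upper bulge, had 13.2 ± 4.40 against 9.13 ± 2.06 CPM (SD, n = 3 each) and overlapping groups, a log2 difference of 0.54 (SE 0.25, edgeR adjusted p 0.293). Itgav, another integrin chain, differed by 0.15, Grip2, the relative of Grip1, by −0.12, and the growth factor Pdgfc by −0.10 on the log2 scale, with edgeR adjusted p of 0.625, 0.834 and 0.781. Slit3 and Pdgfc are looser entries of this list than the integrins, Grip2 and Egfl6. Of the 5 tested without them, a choice made after seeing the data, 0 passed in edgeR or DESeq2. At an unadjusted p under 0.05 there were 0 in edgeR and 1, Egfl6, in DESeq2. With the sex covariate 0 passed and 1 had such a p, Itgb1 (log2 −0.15, SE 0.06). Without that covariate 2931 of all 15422 genes had such a p in edgeR. The median over the 7 was −0.0015, against −0.0036 over all genes tested.

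Among relatives of Vwa2 with von Willebrand factor A domains in the matrix, 0 of the 4 tested passed in edgeR, against 1.60% over all genes. At an unadjusted p under 0.05, 1 was higher and 1 lower. Such a p was found for 2931 of all 15422 genes tested. With DESeq2, which called 5.7% of all genes, 1 passed: Matn2, which encodes matrilin 2 and was lower. The list holds 7 genes, with Matn1 and Matn3 not listed in the table and Matn4 below the filter on low counts.

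The basement membrane that the Fraser complex lies against was higher for several of its components. Of 24 genes in this list, all tested, 5 passed in edgeR and were higher, 0 passed as lower, and 19 did not pass, against 1.60% called over all genes. With DESeq2, which called 5.7% of all genes, 9 were higher and 0 lower. With the sex covariate, which called 2.65% of all genes, 8 were higher and 0 lower. At an unadjusted p under 0.05, 10 were higher and 1 was lower, beside 2931 of all 15422 genes in either direction. The median log2 difference was 0.12, against −0.0036 over all genes. This list too was chosen with earlier results of these data known, so no enrichment is read from its counts or median.

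Hspg2 encodes perlecan, the heparan sulfate proteoglycan of basement membranes. It had 216, 223 and 241 CPM in DE679, DE685 and DE688 against 95.3, 112 and 84.2 CPM in DE680, DE684 and DE689. It was 2.34-fold higher (log2 1.22, SE 0.10, edgeR adjusted p 0.00241), a fold close in size to that of Vwa2, and passed without any 1 of the 6 libraries. Col4a2, a collagen IV chain, had 53.3 ± 7.91 against 27.5 ± 4.16 CPM, 1.94-fold higher (edgeR adjusted p 0.0241, n = 3 each). Its partner chain Col4a1 had 64.2 ± 7.99 against 39.7 ± 10.9 CPM and did not pass in edgeR (adjusted p 0.118, n = 3 each), though its groups did not overlap and DESeq2 called it higher.

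Fbln1, which encodes the matrix protein fibulin 1, had 43.1 ± 5.47 against 25.7 ± 3.43 CPM (edgeR adjusted p 0.0384, n = 3 each). Lamb2, the laminin beta 2 chain, had 69.6 ± 6.93 against 44.8 ± 4.11 CPM (edgeR adjusted p 0.0256, n = 3 each). Lama5, the laminin alpha 5 chain, named after its values were seen, had 367 ± 22.2 against 255 ± 27.9 CPM (edgeR adjusted p 0.0389, n = 3 each). These 3 and Col4a2 were higher in all 3 knockout libraries than in all controls. They rest on all 6 libraries: Fbln1 passed in 2 of the 6 fits that left out a library, and Col4a2, Lamb2 and Lama5 in 1 each, with adjusted p up to 0.156.

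Other genes of the basement membrane did not pass in edgeR, as these examples show. Col7a1, the collagen of the anchoring fibrils, had 429 ± 53.4 against 445 ± 92.3 CPM (edgeR adjusted p 0.882, n = 3 each). Lama3 and Lamb3, laminin chains of the epidermis, differed by 0.13 and 0.27 on the log2 scale (edgeR adjusted p 0.477 and 0.128). Lamb3 was higher in all 3 knockout libraries than in all controls, and DESeq2 called it higher. Against 1.60% called over all genes, 1 of 8 genes of the hemidesmosome and laminin receptors passed and was higher. This was Bcam, a laminin alpha 5 receptor, with 369 ± 20.9 against 240 ± 12.4 CPM (1.54-fold, edgeR adjusted p 0.00771, n = 3 each). Itga6 and Itgb4, the hemidesmosomal integrin, differed by −0.11 and −0.04 (edgeR adjusted p 0.550 and 0.804). A p above the threshold does not show that such genes are equal. Col4a1, Col7a1, Lama3, Lamb3, Itga6 and Itgb4 were named after their values were seen.

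**Figure D4:**
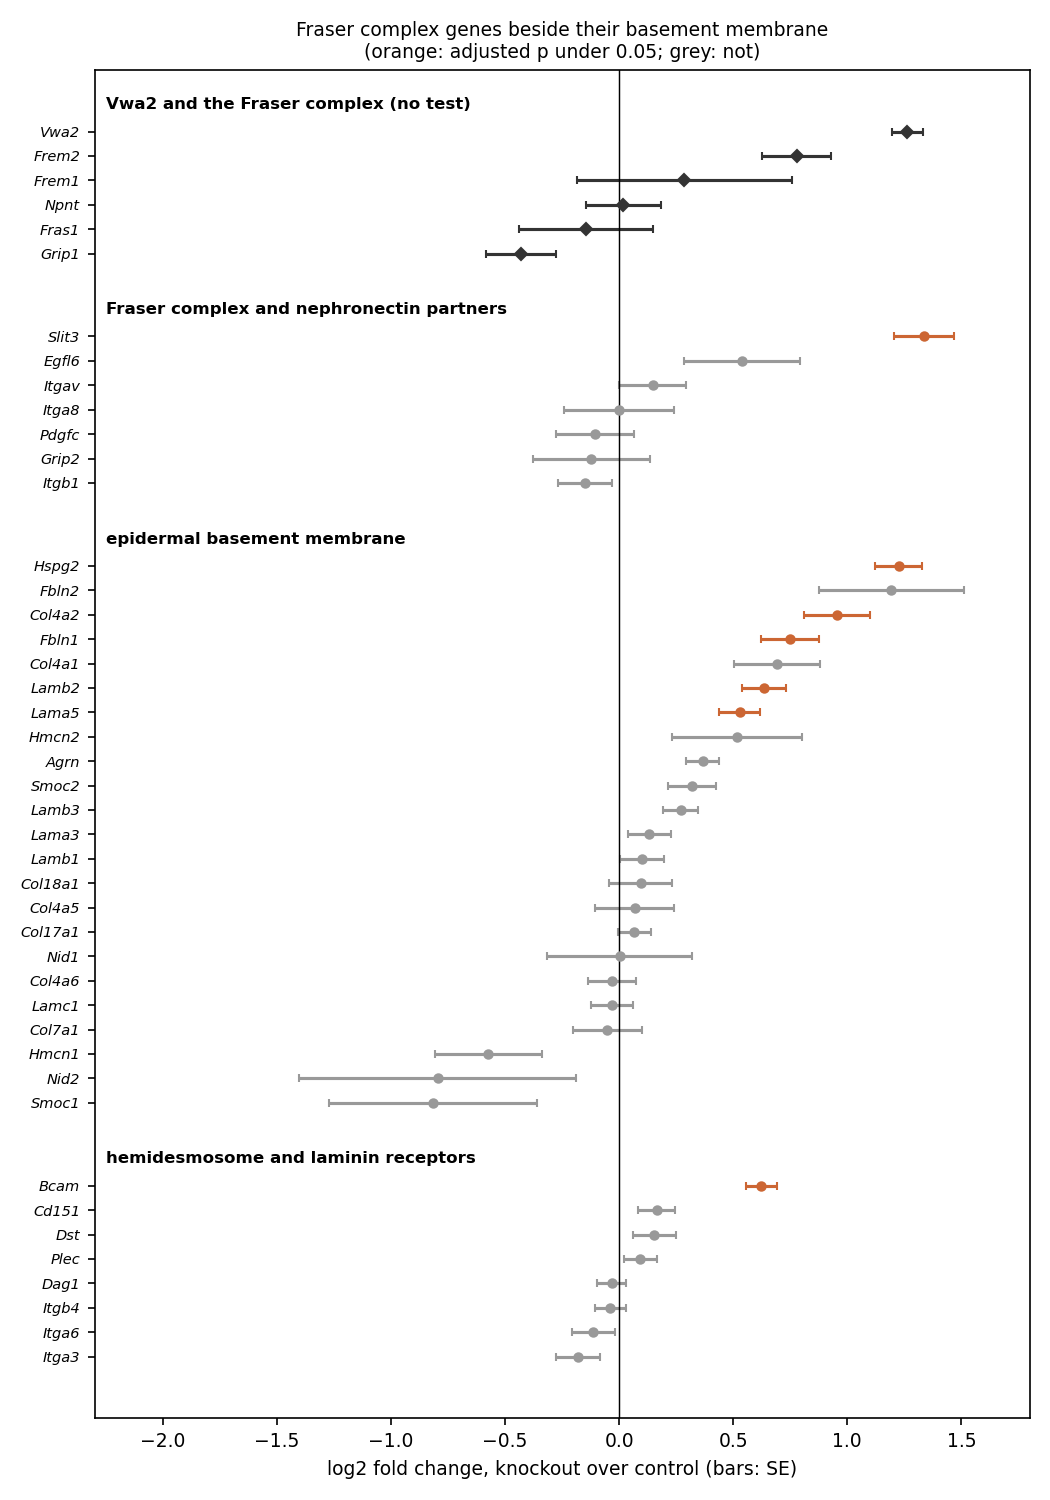
Log2 fold change, knockout over control, with its SE (horizontal axis) for the 6 members (dark diamonds, no test) and for genes of 3 lists (circles; orange with an adjusted p under 0.05, grey without; 1 basement membrane gene that did not pass is not drawn). Vwa2 at 1.26 lies beside Hspg2 at 1.22 and Slit3 at 1.34, and the orange genes, 5 of 24 in the basement membrane, 1 of 8 in the hemidesmosome and laminin receptor list and 1 of 7 in the partner list, are all higher in the knockout.

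Nephronectin and Egfl6 are known as products of the follicle bulge, and genes of that region were counted beside Npnt. Of 13 genes of the bulge and isthmus, 4 passed in edgeR and were higher, 0 passed as lower and 9 did not pass, against 1.60% called over all genes. The median log2 difference was 0.61, against −0.0036 over all genes, and 11 of the 13 were positive. This list was chosen with earlier results of these data known, so its counts and median are descriptions and no enrichment is read from them. The 4 were Plet1 (0.82, SE 0.05, edgeR adjusted p 0.00137), Nfatc1 (0.95, SE 0.10, edgeR adjusted p 0.00771), Foxc1 (0.67, SE 0.09, edgeR adjusted p 0.0186) and Postn (0.75, SE 0.11, edgeR adjusted p 0.0253). With a library left out Foxc1 passed in 3 of 6 fits and Postn in 2, with adjusted p up to 0.0784 and 0.115, and Plet1 and Nfatc1 passed in all 6. With DESeq2, which called 5.7% of all genes, 10 were higher. Npnt, which is not in this list, differed by 0.02 (SE 0.17).

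The genes most like each member across the 6 libraries were found by the root mean square difference between log2(CPM + 0.5) profiles centred on each gene's mean, among genes of at least 1 CPM on average. This is a description over 6 libraries that share the genotype difference. Nearest to Vwa2 were Wnt7b, a Wnt ligand (0.108), Tgm5, a transglutaminase (0.121), and the tetraspanin gene Tspan33 (0.126). Tspan33 had means of only 1.55 CPM (knockout) and 0.484 CPM (control), a 3.19-fold difference against 2.40-fold for Vwa2. The added 0.5 narrows the differences of genes at so low a level. Wnt7b had 140, 164 and 165 CPM in DE679, DE685 and DE688 against 65.9, 55.1 and 51.8 CPM in DE680, DE684 and DE689. Nearest to Frem2 were Fam13a (0.0434), Tm4sf1 (0.0826) and the urate transporter gene Slc2a9 (0.0890). Nearest to Fras1 were Depdc7 (0.115), the cystine transporter gene Slc7a11 (0.137) and the calcium channel subunit gene Cacnb4 (0.150).

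Grip1 was nearest to Gm10557 (0.0482), Mms22l (0.0516) and Gm43127 (0.0580). Npnt was nearest to Gm47976 (0.0711), Lrriq3 (0.0721) and Gm21781 (0.0729), and Frem1 to Gm42748 (0.0562), Ttc25 (0.0828) and Hic2 (0.0955). Between members, Fras1 and Grip1 (0.307) and Vwa2 and Frem2 (0.314) were the closest pairs of the 15, and Vwa2 and Grip1 (0.859) and Vwa2 and Fras1 (0.827) the farthest. A profile that varies little is near to many others, so these distances do not rank the strength of a relation.

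Markers of other cell types were given for the whole suspension. Of 10 fibroblast genes 7 were tested, with a summed level of 174 to 187 CPM in the knockout against 63.3 to 101 CPM in the control. Of that sum Dcn alone, which encodes decorin and was the single gene of the list that passed in edgeR, held 112 to 123 and 20.8 to 40.6 CPM. Of the 7, 3 were positive and 4 negative, with a median log2 difference of −0.38. Thy1 was at 0.85 (SE 0.17, edgeR adjusted p 0.0560) with the knockout higher in all libraries, and DESeq2 and the fit with a sex covariate called it higher. Fbn1 was at −0.99 (SE 0.32, edgeR adjusted p 0.166), with every knockout library below every control. The fibroblast collagen gene Col1a1 had 4.71 to 6.46 CPM in the knockout and 3.81 to 12.6 in the control, and Lum at most 7 counts in a library. Vwa2, Frem2 and the 5 basement membrane genes that passed were, like Dcn, higher in the 3 knockout libraries. Any gene picked as higher in the knockout shares this pattern, so nothing is read from it. The part of other cells in the differences of Vwa2, Frem2 and these 5 genes was not tested.

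Melanocyte genes, 9 of 9 tested, summed to 88.3 to 129 CPM against 61.4 to 89.1, and immune genes, 10 of 12 tested, to 74.6 to 180 against 38.9 to 152. None of these passed in edgeR, while 3 melanocyte and 0 immune genes had an unadjusted p under 0.05, and DESeq2 called 1, Pmel. All 9 melanocyte and all 10 immune genes tested were positive, with median log2 differences of 0.53 and 0.57. Over all 15422 genes 7608 were positive. With the sex covariate 4 melanocyte and 5 immune genes had an unadjusted p under 0.05, all higher, and 0 passed. The smooth muscle and pericyte genes, 4 of 8 tested, summed to 164 to 188 against 109 to 140 CPM. That sum was mostly Cspg4, also known as a marker of epidermal stem cells, which passed (0.51, SE 0.09, edgeR adjusted p 0.0427). Endothelial genes summed to 4.04 to 5.64 against 6.23 to 9.21 CPM. All 7 tested of 8 were negative, with a median log2 difference of −0.87, 3 with separate groups, and 0 passed in edgeR or DESeq2, with 2 at an unadjusted p under 0.05 in edgeR. Skeletal muscle genes summed to at most 2.94 CPM in any library and Merkel cell genes to 6.30 to 10.1 against 6.83 to 7.74 CPM. The Schwann cell list, 5 of 7 tested, summed to 125 to 138 against 133 to 138 CPM, mostly Egr2 and Mbp, which other cells also express. Keratinocyte genes summed to 44021 to 53649 against 42332 to 60668 CPM. Of these 0 of 8 passed in edgeR, 3 had an unadjusted p under 0.05 and 2 passed in DESeq2 (Krt15 and Trp63). Among all 15422 genes, 2931 had an unadjusted p under 0.05 in edgeR, and DESeq2 called 5.7% of all genes.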

How the data were processed

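One table holds estimated counts as the authors deposited them, and another a normalized signal that the authors deposited, which by its values is the estimated count times a constant for the library plus 0.001. Per the submitters' processing notes, bcl2fastq 2.20, cutadapt 1.18, STAR 2.7.0f and Partek were used with mm10, and counting by strand is not given in the sources used here. From 53.4% to 58.2% of a library's values were whole. For each gene the estimated counts were rounded. Genes of low count were removed with filterByExpr defaults, TMM factors computed, and all 6 libraries fitted with glmQLFit and glmQLFTest (edgeR 4.0.16, genotype only, two-sided). Benjamini-Hochberg adjustment covered all 15422 genes tested, at a threshold of 0.05. The fit was run on counts simulated from the means and dispersions of these libraries, with no sex effect. That run checks the code and not whether the model holds for these libraries. Positions of the members matched GENCODE M21. No libraries of a group were copies (chi-square over its degrees of freedom from 11.2 to 36.3).

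The members and the lists were chosen with earlier results of these data known. Named genes are the members, Gpr161, Gli1, Ptch1, the partner genes tested, from each other list the genes that passed (the 4 of lowest p where more did), and the 3 genes most like each member. All other genes, the keratins and cell type markers included, were named after their values were seen. The lists were partners, von Willebrand factor A relatives, basement membrane, hemidesmosome and laminin receptors, Hedgehog readout, follicle bulge and isthmus, and markers of keratinocytes, fibroblasts, endothelium, smooth muscle and pericytes, skeletal muscle, melanocytes, immune cells, Merkel cells and Schwann cells. Tried as alternatives were DESeq2 1.42.0, limma-voom and limma 3.58.1 (on log2 of the authors' values plus 1), factors by upper quartile or relative log expression, keeping all genes or those averaging 1 CPM or more, sex from Y-linked counts as a covariate, each library left out, CPM without TMM factors and coding length. The smallest p of an exact permutation test (two-sided) is 0.1 here, so no such test was used. CPM precision is limited by counting: 3 counts are 0.117 to 0.173 CPM. The values of 1 gene of the basement membrane list, which counts in its totals, are not reported here.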

Additional observations from a re-analysis of the deposited data

How the results depend on the processing

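Vwa2 stayed between 1.23 and 1.31, Frem2 between 0.69 and 0.97 and Grip1 between −0.57 and −0.28 on the log2 scale over all 14 alternatives. Fras1 ranged from −0.45 to 0.14 and Npnt from −0.09 to 0.17 over 14, and Frem1, which a mean of at least 1 CPM leaves out, from −0.02 to 0.59 over 13. Of the members 1 was called, and 2 (Frem2 also) with DESeq2 (5.7% of all genes called), limma-voom (1.58%), limma on the authors' values (1.65%), sex as covariate (2.65%) and without DE684 (0.764%). Nothing is read from this, since this comparison chose the members. Slit3, Hspg2, Bcam, Plet1 and Nfatc1 passed in all 14.

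The genes called were 192 higher and 55 lower. DESeq2 gave 569 and 310, and the sex covariate 299 and 110; the cause was not tested. Leaving out 1 library gave 65 to 109 higher and 3 to 19 lower; such fits hold fewer samples. The sign of Itga8 turned to 0.00077 with relative log expression factors, 0.015 with upper-quartile factors, 0.0019 with a mean of at least 1 CPM and 0.0095 when sex was a covariate. With a library left out Itga8 ranged from −0.13 to 0.15; Grip2 ranged from −0.37 to 0.026 there.

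Per coding length in place of transcript length, levels in CPM per kb were, in the knockout and then the control, 76.6 and 31.9 for Vwa2, 30.5 and 30.1 for Npnt, 9.50 and 5.53 for Frem2, 4.53 and 6.09 for Grip1 and 0.129 and 0.105 for Frem1, and in the control 6.06 for Fras1. By coding length the control means of Grip1, Fras1 and Frem2 stand in another order, still within their spread. No paired analysis was possible because the columns carry no replicate number of the labels, only tags and running numbers that match none. Frem1 rests on 8 to 28 counts in a library.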
